A study of Mus musculus with 6 samples.

Results

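Oxidative phosphorylation makes most of the ATP of a resting animal cell. Complexes I and II pass electrons from NADH and succinate to ubiquinone, complex III passes them on to cytochrome c, complex IV reduces oxygen to water, and complex V, the ATP synthase, uses the proton gradient that the pumping complexes build. Most subunits are encoded in the nucleus and imported into mitochondria, whereas a core set is encoded in mitochondrial DNA. In the small intestine, crypt stem and progenitor cells divide and move onto the villus, where absorptive enterocytes take up nutrients, goblet cells secrete mucus and enteroendocrine cells release hormones.

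The 87 genes described here are the nuclear oxidative phosphorylation genes: all genes listed in both deposited expression tables whose symbol begins with Nduf, Uqcr, Atp5, Sdh followed by a to d, or Cox followed by 4 to 8. They were chosen by name, with no measured value in the rule, from 5671 genes with a symbol in both tables. Sorted by complex, 37 belong to complex I (NADH dehydrogenase), 4 to complex II (succinate dehydrogenase), 8 to complex III (ubiquinol-cytochrome c reductase), 12 to complex IV (cytochrome c oxidase, with Ndufa4 counted here), and 16 to complex V. A further 7 are assembly factors of complexes I and II (Ndufaf2, Ndufaf3, Ndufaf4, Ndufaf8, Sdhaf1, Sdhaf2 and Sdhaf4), 1 is Cox7a2l, a factor that links complexes III and IV into supercomplexes, and 2 are the pseudogenes Atp5l-ps2 and Uqcrh-ps2. Ndufs6b, counted with complex I by its name, is annotated as a processed pseudogene. Counts of Atp5l, Uqcrh and Ndufs6 are uncertain to the extent that reads could be shared with these near-identical copies. Ndufaf6, Atp5k-ps2 and Atp5l2-ps match the name rule but are listed in the anterior table only and were left out. The mitochondrially encoded subunits were not analysed here.

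Single epithelial cells of the jejunum of mice aged 120 days, on a mixed CD-1:C57BL/6 background, were profiled by MARS-seq, in which cells are sorted into wells and each mRNA molecule is tagged near its 3' end with a unique molecular identifier (UMI). Of 12 equal pieces of each small intestine, piece 3 was taken as anterior jejunum and piece 7 as posterior jejunum, so that 3 mice gave 3 anterior and 3 posterior samples. The series title concerns ID2 and enteroendocrine cells, and the labels give no genotype for any mouse. Villus and crypt cells were pooled in equal amounts and sorted as EpCAM-positive and DAPI-negative, so the shares of cell classes are partly set by the preparation.

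The 2043 cells (1028 anterior and 1015 posterior) held 12978283 UMIs, with 1623633 to 3141099 per sample and a median of 3385 per cell, and the 87 genes held 6.065% of them (4.523% to 8.006% per sample). Levels are UMIs of a gene per 10000 UMIs of the cell. Each molecule is counted once at its 3' end, so no correction for gene length is needed. Levels are shares of a cell's UMIs and not numbers of molecules per cell. Cells were clustered without the 87 genes and without the related gene lists used below, and clusters were named from marker genes as enterocyte-like (912 cells), goblet-like (587), crypt progenitor-like (227), enteroendocrine-like (113), Paneth-like (164) and tuft-like (40). Enterocyte-like cells of mouse 1 stood apart from those of mice 2 and 3. They came mostly from cluster 4, and their ribosomal protein genes summed to 1383 (anterior) and 1615 (posterior) UMIs per 10000, against 389.1 to 487.3 in the other samples. Summed over a class, enterocyte and enteroendocrine markers fitted the names of the tested classes. By cluster the enterocyte markers were uneven. In cluster 4 (163 cells) 3 of 14 were raised and in cluster 12 (51 cells) 4 of 14, against 9 to 13 in the other enterocyte-like clusters. The naming of the enterocyte-like cells of mouse 1 is therefore less certain. The 14 enterocyte markers summed to 548 to 1284 UMIs per 10000 in enterocyte-like samples. They summed to 72.5 to 126 in progenitor-like, 115 to 152 in goblet-like and 96.5 to 199 in enteroendocrine-like samples. The 2 enteroendocrine markers summed to 308 to 613 in enteroendocrine-like samples against at most 4. In progenitor-like samples the 4 measured stem markers summed to 10.4 to 23.8, against at most 3.03 in the other tested classes. The 7 measured transit-amplifying markers summed to 18 to 25.7 there, against at most 4.79. Paneth markers were raised in part of the tested classes too. In cluster 2 (370 enterocyte-like cells) 8 of 10 were raised, beside 9 of 14 enterocyte markers. In the goblet-like clusters 1 and 10 (457 and 81 cells) 6 of 10 were raised. Counts are also given without both samples of mouse 1. No cell name occurred in more than 1 sample; 134 plate, pool and well names did, from 1 plate label used for posterior mice 1 and 2, and none of these had identical counts.

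Progenitor-like and enterocyte-like cells devoted the largest shares of their UMIs to these genes, and goblet-like cells the smallest. The 87 genes summed to 611.1 ± 102 UMIs per 10000 in enterocyte-like cells, 194 ± 30.66 in goblet-like cells and 789.8 ± 144 in progenitor-like cells (mean ± SD, n = 6 samples each). Enteroendocrine-like cells had 371.7 ± 104 (n = 5), because posterior mouse 3 held 4 such cells and was left out. Paneth-like cells had 421.9 ± 98.2 (n = 5) and tuft-like cells 324 ± 128.9 (n = 3). Every goblet-like sample (157.1 to 249.6) lay below every enterocyte-like sample (489.6 to 742.5) and every progenitor-like sample (597.8 to 905.3). The enteroendocrine-like, tuft-like and Paneth-like values overlapped one another, and the enterocyte-like and progenitor-like values overlapped too. The Paneth-like cluster also had 9 of 11 goblet markers raised and a median of 923.5 UMIs per cell, and it and the tuft-like cells entered no test.

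**Figure D1:**
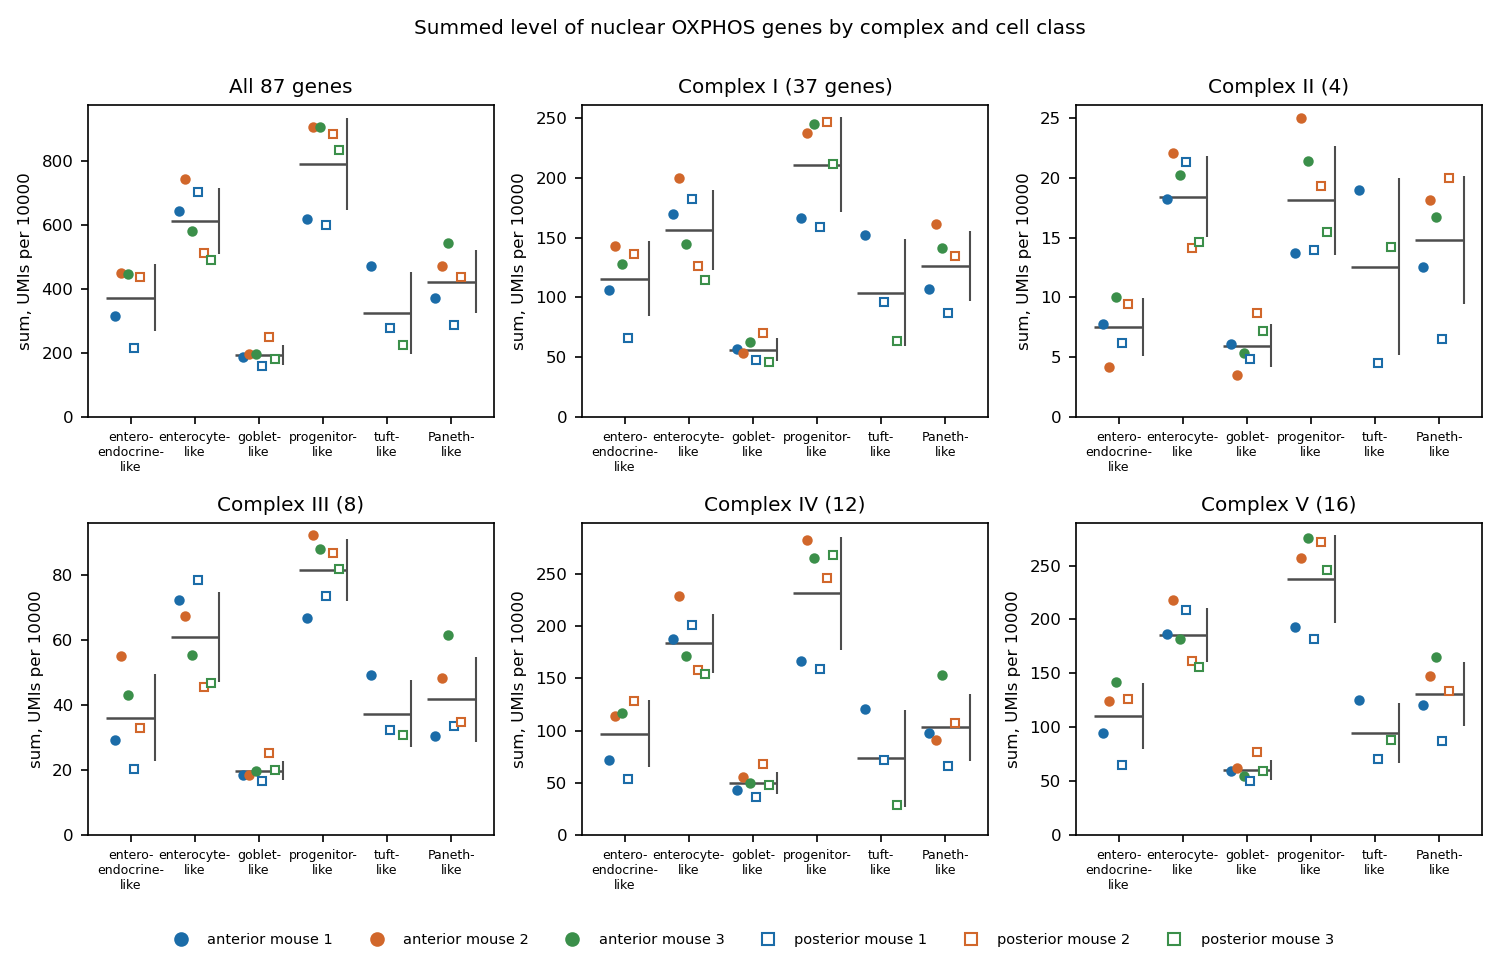
Summed level (UMIs per 10000 UMIs of the cell, linear axis) of all 87 genes and of complexes I to V in 6 cell classes; each point is 1 sample with at least 5 cells of the class, horizontal lines are means and vertical lines are ± 1 SD. Goblet-like samples (157.1 to 249.6 for all 87 genes) sit below all enterocyte-like and progenitor-like samples in every panel drawn.

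The division of this sum among the complexes differed between classes by a few percentage points. Complex V took 30.5% ± 1.21 of it in enterocyte-like cells, 31.1% ± 1.67 in goblet-like cells, 29.7% ± 1.51 in enteroendocrine-like cells and 30.1% ± 1.06 in progenitor-like cells. Complex IV took 30.1% ± 1.12 in enterocyte-like cells, 25.5% ± 2.08 in goblet-like cells, 25.8% ± 2.38 in enteroendocrine-like cells and 29.1% ± 2.3 in progenitor-like cells. For complex IV the goblet-like samples (23% to 28.1%) did not overlap the enterocyte-like ones (28.7% to 31.5%). Complex I ran the other way, at 25.4% ± 1.32 in enterocyte-like, 29% ± 2.58 in goblet-like, 31.3% ± 1.76 in enteroendocrine-like and 26.7% ± 0.844 in progenitor-like cells; its enteroendocrine-like samples (28.8% to 33.6%) lay above all enterocyte-like ones (23.4% to 27%). Complex III held 9.90% ± 1.05, 10.2% ± 0.592, 9.62% ± 1.70 and 10.4% ± 0.999 in the same order of classes, and complex II, the smallest, 3.01% ± 0.251, 3.06% ± 0.749, 2.14% ± 0.726 and 2.29% ± 0.295.

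Within complexes the levels of single subunits spread widely. Over all cells the highest were Cox6a1 (33.44 UMIs per 10000), a small regulatory subunit of complex IV, Atp5g3 (26.54), 1 of the genes for the membrane c-subunit ring that rotates in complex V, Cox4i1 (16.42), a regulatory subunit of complex IV, Atp5d (16.41), the delta subunit of the ATP synthase stalk, and Uqcrq (15.95), a small subunit of complex III. In enterocyte-like cells Cox6a1 ranged between 37.09 and 66.57 with a median of 49.34, in goblet-like cells between 8.247 and 17.33 (median 11.95), and in progenitor-like cells between 34.17 and 81.16 (median 68.80). Goblet-like samples were apart from both other classes for this gene. The 2 highest complex I genes were Ndufa6 (12.4 ± 1.61 in enterocyte-like, 5.09 ± 0.965 in goblet-like and 11.37 ± 2.15 in progenitor-like cells) and Ndufa13 (11.21 ± 3.26, 4.51 ± 1.02 and 13 ± 5.41 in the same classes), both accessory subunits. In complex II they were Sdhd, a membrane anchor (6.87 ± 1.397, 2.08 ± 0.892 and 6.09 ± 1.96), and Sdhb, the iron-sulphur subunit (5.29 ± 1.36, 2.00 ± 1.64 and 4.85 ± 1.33). The lowest were the pseudogenes Atp5l-ps2 (0.05828) and Uqcrh-ps2 (0.08408), which did not reach the minimum mean of 0.2 UMIs per 10000 for testing, so that 85 members were tested, 78 of them in the regional test of goblet-like cells.

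Differences between classes were tested with limma on log2(mean UMIs per 10000 + 0.2) per class and sample, with the sample as a term; log2 differences below are on this scale, which understates the change of low genes, and a gene is called where its Benjamini-Hochberg adjusted p over all genes tested is under 0.05. The 4 class comparisons come from 1 fit and share samples, so their counts are not independent of one another.

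Goblet-like cells had lower levels than progenitor-like cells throughout the oxidative phosphorylation genes. Of 85 members, 81 were lower and 0 were higher, where 30.7% of all genes tested were lower and 10.9% higher. The median member difference was -1.94 on the log2 scale, beside -0.39 over all genes. By complex, 36 of 37 complex I, 4 of 4 complex II, 8 of 8 complex III, 11 of 12 complex IV and 15 of 16 complex V genes were lower, as were 6 of 7 assembly factors and Cox7a2l. The members not called were Ndufs1 (-0.73), Sdhaf2 (-0.88), Atp5l (-1.05) and Cox7a1 (-1.13). Ndufa1, Ndufv1 and Ndufaf2 were called with 5 of 6 samples lower. Without both samples of mouse 1, 77 were lower, beside 1377 lower and 355 higher of 5136 genes.

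The largest difference was that of Atp5g1, another c-subunit gene of ATP synthase. It lay between 1.156 and 1.593 UMIs per 10000 in goblet-like cells (median 1.383), against 9.452 to 18.61 in progenitor-like cells (median 15.35). The samples of the classes did not overlap, and the log2 difference was -3.16 (SE 0.293, limma adjusted p = 1.5e-09, lower in 6 of 6 samples). Next came 3 accessory subunits of complex I. Ndufb6 had 0.7019 to 1.398 in goblet-like cells (median 0.866), against 4.639 to 11.07 in progenitor-like cells (median 8.473), a log2 difference of -2.86 (SE 0.317, limma adjusted p = 2.75e-08). Ndufc2 had 0.385 to 3.457 (median 0.9334), against 5.944 to 10.46 (median 8.734), a difference of -2.83 (SE 0.367, limma adjusted p = 4.09e-07). Ndufa12 had 0.08469 to 1.010 (median 0.4144), against 2.829 to 4.715 (median 3.598), a difference of -2.66 (SE 0.371, limma adjusted p = 1.25e-06). In these 3 genes too the goblet-like and progenitor-like samples were apart in 6 of 6 pairs.

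Beside these values stand several measurements whose part in the difference was not tested. The 11 goblet markers, all listed in both tables and none at 0, summed to 2898 to 4954 UMIs per 10000 in goblet-like cells and 21.2 to 138 in progenitor-like cells, so that a large part of each goblet-like total went to them. Ribosomal protein genes summed to 361.2 ± 75.03 in goblet-like and 2755 ± 213 in progenitor-like cells, and the nuclear RNA Malat1 averaged 108 and 7.37. Median depth ran between 2031 and 12242 UMIs per cell in goblet-like samples and between 7647.5 and 14857 in progenitor-like samples; among cells with at least 4000 UMIs, 84 of 85 members were lower (39.3% of all genes lower and 6.34% higher), with a median of -1.92. With median-ratio scaling the median of all genes was 0.20 in place of -0.39, and 69 members were lower and 0 higher, with a member median of -1.36. Under that scaling 1173 of 5302 genes were higher and 1001 lower, against 577 higher and 1630 lower without it.

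The promoters of the 4 genes with the largest goblet-like difference, of Cox7a1, which differs from the other members below, and of Cox6a1, the most abundant member, are shown because genes of these complexes are known targets of the factors NRF1 and GABPA. They are RefSeq windows on GRCm38.p6 of 250 bases before to 50 after the gene start, written 5' to 3' on the gene's strand. Capitals mark matches on either strand to GCGCA followed by any base and GCGC (the NRF1 motif) or CCGGAAG (an ETS motif of the GABPA family), which did not overlap each other in these windows.
Atp5g1, chr11:96075582-96075881, minus strand: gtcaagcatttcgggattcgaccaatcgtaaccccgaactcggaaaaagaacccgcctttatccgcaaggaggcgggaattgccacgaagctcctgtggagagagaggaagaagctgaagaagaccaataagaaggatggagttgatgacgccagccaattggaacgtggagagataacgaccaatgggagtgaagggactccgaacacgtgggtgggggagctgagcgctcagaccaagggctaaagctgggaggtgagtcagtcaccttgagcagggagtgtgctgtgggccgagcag
Ndufb6, chr4:40279372-40279671, minus strand: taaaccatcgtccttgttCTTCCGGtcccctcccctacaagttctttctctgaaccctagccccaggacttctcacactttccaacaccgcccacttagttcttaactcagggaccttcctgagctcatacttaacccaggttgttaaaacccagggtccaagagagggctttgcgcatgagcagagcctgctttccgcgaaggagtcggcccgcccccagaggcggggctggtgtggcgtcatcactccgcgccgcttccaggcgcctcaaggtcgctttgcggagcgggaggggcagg
Ndufc2, chr7:97399753-97400052, plus strand: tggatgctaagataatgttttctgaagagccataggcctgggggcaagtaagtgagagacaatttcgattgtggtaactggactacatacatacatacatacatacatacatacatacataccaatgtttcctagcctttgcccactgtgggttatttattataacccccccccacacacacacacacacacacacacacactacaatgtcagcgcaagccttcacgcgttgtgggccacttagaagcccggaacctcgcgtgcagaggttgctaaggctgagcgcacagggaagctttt
Ndufa12, chr10:94198785-94199084, plus strand: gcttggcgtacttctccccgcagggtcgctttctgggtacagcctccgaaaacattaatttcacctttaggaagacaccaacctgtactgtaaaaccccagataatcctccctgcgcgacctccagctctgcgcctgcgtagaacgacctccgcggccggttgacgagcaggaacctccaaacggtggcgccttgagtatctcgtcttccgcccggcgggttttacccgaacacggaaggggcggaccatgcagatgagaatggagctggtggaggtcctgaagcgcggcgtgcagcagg
Cox7a1, chr7:30183921-30184220, plus strand: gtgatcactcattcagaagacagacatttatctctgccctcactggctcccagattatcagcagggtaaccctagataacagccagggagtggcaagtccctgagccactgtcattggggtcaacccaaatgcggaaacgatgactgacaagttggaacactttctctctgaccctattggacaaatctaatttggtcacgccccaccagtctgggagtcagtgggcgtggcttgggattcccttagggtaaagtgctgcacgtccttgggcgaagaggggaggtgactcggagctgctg
Cox6a1, chr5:115348909-115349208, minus strand: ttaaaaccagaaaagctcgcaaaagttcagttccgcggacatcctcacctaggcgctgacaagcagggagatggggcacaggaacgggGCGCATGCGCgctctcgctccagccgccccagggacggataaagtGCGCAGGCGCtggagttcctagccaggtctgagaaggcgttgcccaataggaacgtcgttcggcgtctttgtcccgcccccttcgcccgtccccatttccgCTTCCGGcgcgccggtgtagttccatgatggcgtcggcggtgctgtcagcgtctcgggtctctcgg
Cox6a1 held 2 NRF1 matches, centred 157 and 112 bases before the start, the first of which reads the same on both strands, and an ETS match 13 bases before it. Ndufb6 held an ETS match 229 bases before its start, and Atp5g1, Ndufc2, Ndufa12 and Cox7a1 held none of these letters in the window. Of the 87 members 71 had a RefSeq promoter entry, some with several starts (76 windows in all). An NRF1 match stood in 26.3% of these windows and an ETS match in 25.0%, against 4.60% and 8.86% of 32851 promoters of all genes. Either motif was in 46.1% of member windows and 12.6% of all promoters, and both in 5.26% and 0.892%; the members with both were Atp5h, Atp5k, Cox6a1 and Sdhd. A match is a run of letters and not a measured binding site.

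Enterocyte-like cells had higher levels than goblet-like cells across all 5 complexes. Of 85 members 72 were higher and 0 lower, where 20.8% of all genes were higher and 4.09% lower, and the median member difference was 1.55, beside 0.50 over all genes. By complex, 31 of 37, 4 of 4, 8 of 8, 12 of 12 and 14 of 16 genes of complexes I to V were higher, as were 2 of 7 assembly factors (Ndufaf4 and Ndufaf8) and Cox7a2l. Assembly factors that did not pass ranged between 0.51 and 0.95. Without mouse 1, 57 members were higher, beside 864 higher and 133 lower of 5136 genes.

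The largest differences after Cox7a1 (3.30, described with the isoforms) were in Atp5o, Atp5g1 and Ndufc1. Atp5o, the stator subunit that confers oligomycin sensitivity, had 12.43 to 17.79 UMIs per 10000 in enterocyte-like cells (median 13.95), against 1.992 to 4.032 in goblet-like cells (median 2.531), a log2 difference of 2.34 (SE 0.244, limma adjusted p = 2.8e-08). Atp5g1 had 4.107 to 10.53 (median 8.278) in enterocyte-like cells, against 1.156 to 1.593 in goblet-like cells, a difference of 2.23 (SE 0.293, limma adjusted p = 1.31e-06). Ndufc1, a small subunit of complex I, had 3.768 to 8.659 (median 5.834), against 0.7669 to 2.338 (median 1.159), a difference of 2.04 (SE 0.328, limma adjusted p = 2.63e-05). Enterocyte-like and goblet-like samples were apart for all 3 genes. Ndufa1, Ndufa8, Sdhb, Uqcr10 and Uqcrb were called although 1 of 6 samples went the other way.

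The count depends on the scaling. Median-ratio scaling set the median over all genes to -0.23 in place of 0.50, and left 35 members higher and 0 lower, beside 5.68% of all genes higher and 9.86% lower. Goblet markers summed to 76.5 to 190 UMIs per 10000 in enterocyte-like cells, against 2898 to 4954 in goblet-like cells, and their part in the difference was not tested. Among cells with at least 4000 UMIs, 81 members were higher, beside 30.5% of all genes higher and 4.12% lower.

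On the scale used for these tests, few members were called between enterocyte-like and progenitor-like cells. Of 85 members 1 was higher and 6 were lower in enterocyte-like cells, below the shares of all genes (15.4% higher and 14.9% lower). The median member difference was -0.40, beside 0.08 over all genes, and 77 members were below 0. The gene that rose was Cox7a1. The genes that fell were, on the log2 scale, Atp5g2 (-1.11), Ndufb11 (-1.08), Ndufc2 (-1.0), Atp5g1 (-0.93), Ndufb6 (-0.89) and Uqcr11 (-0.87).

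Atp5g2, the least abundant c-subunit gene, had 0.1875 to 0.5479 UMIs per 10000 in enterocyte-like cells (median 0.2275), against 0.690 to 1.166 in progenitor-like cells (median 0.8787), and the classes were apart (SE 0.361, limma adjusted p = 0.0195, lower in 6 of 6 samples). Ndufb11, an accessory subunit of complex I, had 2.226 to 6.094 (median 3.865), against 5.679 to 13.32 (median 8.213), with overlap (SE 0.313, limma adjusted p = 0.00897, 6 of 6). Uqcr11, the smallest subunit of complex III, had 5.80 to 12.76 (median 9.835), against 11.76 to 20.37 (median 18.67), also with overlap (SE 0.279, limma adjusted p = 0.0176, 6 of 6). Ndufc2, Atp5g1 and Ndufb6 were lower in 5 of 6 samples (limma adjusted p = 0.0373, 0.0159 and 0.0319).

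The number of calls changed with the libraries and settings used. On the mean of the deposited log2 values many more members were called, and that count is listed with the processing settings below. Leaving out anterior mouse 3 left 3 calls, posterior mouse 2 left 2 and posterior mouse 3 left 1. No share over all genes is given for these fits, so their counts cannot be set against it. Leaving out both samples of mouse 1 gave 13 (1 higher and 12 lower). In that last fit 742 of 5136 genes were higher and 699 lower, so the count of lower members is near the share over all genes. The median member difference there was -0.62, beside 0.12 over all genes. Median depth per cell was 2196.5 to 10162 UMIs in enterocyte-like and 7647.5 to 14857 in progenitor-like samples, and Malat1, a nuclear RNA read here as a sign of RNA quality, averaged 94.1 and 7.37 UMIs per 10000. Their part in the difference was not tested. Among cells with at least 4000 UMIs, Cox7a1 was higher and Atp5g2 and Ndufb11 were lower (13.1% of all genes higher and 16.2% lower), the median member difference was -0.09, and the 87 genes summed to 772.7 ± 106 in enterocyte-like and 788.3 ± 147 in progenitor-like cells.

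**Figure D2:**
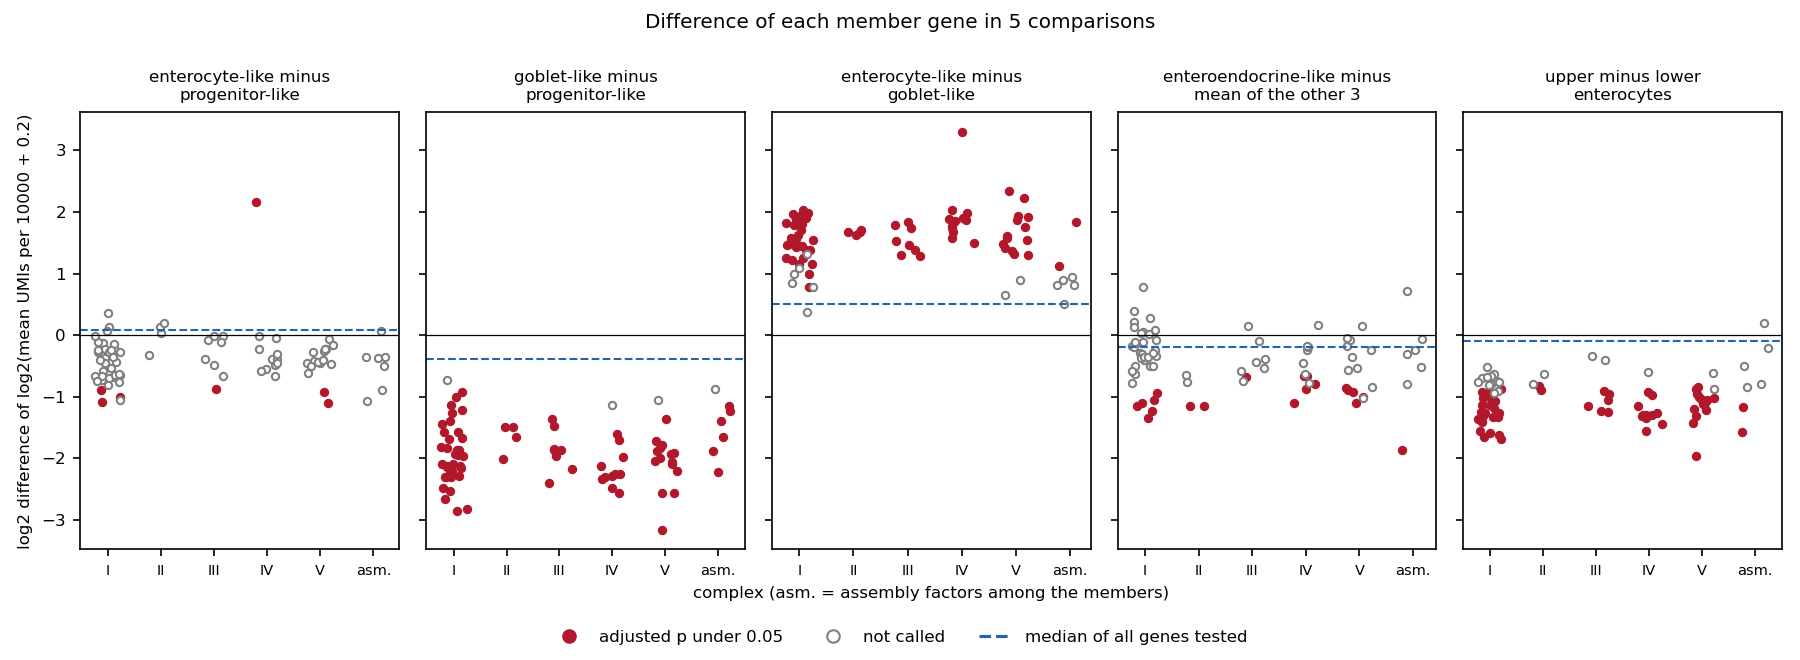
Log2 difference (tested class or position first) of each member in the 5 comparisons between classes and positions, by complex; filled points have an adjusted p under 0.05, dashed lines are the medians of all genes tested, and Cox7a2l is not drawn. Goblet-like differences from progenitor-like cells lie below 0 in all complexes with 81 members called, and the single filled point above 0 in the enterocyte-like against progenitor-like panel is Cox7a1 (2.17).

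Of the measured isoform families, Cox7a and Atp5g had at least 2 members. Cox7a1 encodes the form of subunit VIIa of cytochrome c oxidase known from heart and skeletal muscle, and Cox7a2 the form found in most tissues. Cox7a1 had 4.313 to 7.908 UMIs per 10000 in enterocyte-like cells (median 5.364), against 0.6564 to 1.990 in progenitor-like cells (median 1.031) and 0 to 0.6317 in goblet-like cells (median 0.4745). Enterocyte-like samples were apart from both other classes. The log2 difference was 2.17 over progenitor-like cells (SE 0.470, limma adjusted p = 0.000745, higher in 6 of 6 samples) and 3.30 over goblet-like cells (SE 0.470, limma adjusted p = 4.35e-06, 6 of 6). At 4000 UMIs or more these were 2.56 (limma adjusted p = 4.38e-06) and 4.13 (6.33e-10), and without mouse 1 the first was 1.85 (limma adjusted p = 0.0262). The gene lies on the plus strand at chr7:30184144-30186078 (GRCm38, GENCODE vM21).

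Cox7a2 did not follow it. It had 9.31 ± 1.24 in enterocyte-like, 2.71 ± 0.796 in goblet-like and 12.56 ± 3.42 in progenitor-like cells (SD, n = 6), with a log2 difference of -0.39 between enterocyte-like and progenitor-like cells (SE 0.304, limma adjusted p = 0.353) and 1.74 between enterocyte-like and goblet-like cells (SE 0.304, limma adjusted p = 7.23e-05). Cox7a1 therefore made up 37% ± 4.12 of the molecules of both genes in enterocyte-like cells (34.1% to 45.2%), 14.7% ± 8.51 in goblet-like cells (0% to 24.3%) and 8.26% ± 3.01 in progenitor-like cells (4.95% to 12.8%). The share was also high in Paneth-like cells, at 43.4% ± 11 (27.6% to 56%, n = 5), where both genes were low (Cox7a1 2.58 ± 1.57 and Cox7a2 3.28 ± 1.81 UMIs per 10000). In enteroendocrine-like cells it was between 2.93% and 57.6%. Cox7a2l had 1.21 ± 0.458, 0.361 ± 0.172 and 2.30 ± 0.659 in enterocyte-like, goblet-like and progenitor-like cells.

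The Atp5g genes encode the same mature c-subunit behind different import sequences. Atp5g3 was the main transcript in every class, at 83% ± 4.4 of the 3 genes in enterocyte-like, 88% ± 3.09 in goblet-like and 74% ± 0.936 in progenitor-like cells. Atp5g1 made up 16.3% ± 4.16 in enterocyte-like cells (11.2% to 23%), 11.3% ± 2.88 in goblet-like cells (6.96% to 14.8%) and 24.4% ± 0.87 in progenitor-like cells (23.1% to 25.4%). Its share in progenitor-like cells lay above every enterocyte-like and goblet-like sample, although for enterocyte-like cells the gap was small (23% against 23.1%). The Atp5g3 level itself was 37.79 ± 5.85 in enterocyte-like cells and 43.56 ± 12.2 in progenitor-like cells, a log2 difference of -0.16 (SE 0.253, limma adjusted p = 0.664).

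**Figure D3:**
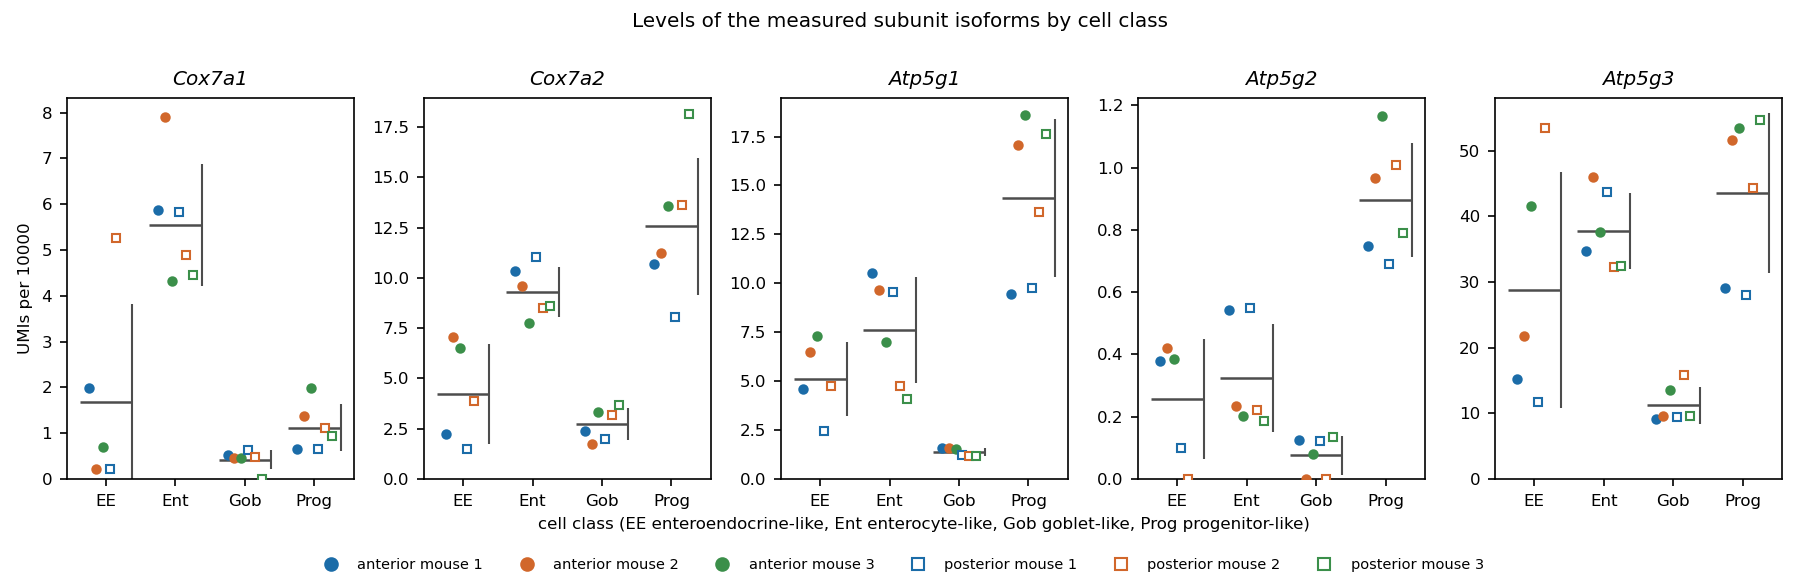
Level (UMIs per 10000, linear axes of different height) of Cox7a1, Cox7a2, Atp5g1, Atp5g2 and Atp5g3 in 4 cell classes; points are samples, horizontal lines means and vertical lines ± 1 SD. Cox7a1 is highest in enterocyte-like cells (4.313 to 7.908), while Atp5g1 and Atp5g2 are highest on average in progenitor-like cells.

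Enteroendocrine-like cells, the class named in the study's title, were set against the mean of the enterocyte-like, goblet-like and progenitor-like classes. Of 85 members 20 were lower and 0 higher, where 12.3% of all genes were lower and 6.28% higher, and the median member difference was -0.40, beside -0.19 over all genes. By complex, 6 of 37, 2 of 4, 1 of 8, 5 of 12 and 5 of 16 genes of complexes I to V and 1 of 7 assembly factors were lower. Since 1 of the 3 classes averaged is goblet-like, which is low, this difference is not one from each class.

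Ndufaf2, an assembly factor of complex I, was listed at 0.6731 UMIs per 10000 in enteroendocrine-like cells of anterior mouse 1 and at 0 in the 4 other samples, against means of 0.963 ± 0.480, 0.624 ± 0.729 and 1.21 ± 0.32 in enterocyte-like, goblet-like and progenitor-like cells (log2 difference -1.86, SE 0.437, limma adjusted p = 0.00395, lower in 5 of 5 samples); a fitted value with samples at 0 depends on the pseudocount. Ndufs1, the largest core subunit of complex I, had 0.9693, 0.3938, 0, 0.3893 and 0 (anterior mice 1, 2 and 3, posterior mice 1 and 2) and differed by -1.35 (SE 0.423, limma adjusted p = 0.0257, lower in 4 of 5). Both are low genes read from 6 to 57 cells per sample. Ndufb3, an accessory subunit, had 1.275, 0.7405, 1.733, 0.7391 and 0.8206, against 3.174 to 6.002 in enterocyte-like cells, 0.4228 to 1.468 in goblet-like cells and 3.582 to 4.956 in progenitor-like cells (log2 difference -1.24, SE 0.292, limma adjusted p = 0.00411, 5 of 5). Its enteroendocrine-like samples lay below every enterocyte-like and progenitor-like sample and overlapped the goblet-like ones. Ndufa3, also accessory, had 2.748, 2.482, 5.230, 0.2563 and 4.815 and differed by -1.16 (SE 0.338, limma adjusted p = 0.0175, lower in 4 of 5).

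In complex II, Sdhb (-1.16, limma adjusted p = 0.0333) and the flavoprotein subunit Sdha (-1.15, limma adjusted p = 0.0151) were lower in 5 of 5 samples, and Sdhc and Sdhd had differences of -0.65 and -0.77 that did not pass. Ndufa3, Ndufb2, Ndufs1, Uqcrq, Cox5a, Cox7a2 and Atp5a1 were called with 1 of 5 samples going the other way. Single libraries weighed on this count. It was 12 when anterior mouse 1 was left out, 13 for anterior mouse 2 and again 13 for anterior mouse 3. It was 11 when posterior mouse 1 was left out. No share over all genes is given for these fits without 1 sample, so their counts cannot be set against it. The count was 6 when both samples of mouse 1 were left out. In that last fit 509 of 5136 genes were lower and 283 higher, so the 6 members did not exceed the share over all genes. The median difference there was -0.25 both for the members and over all genes. Among cells with at least 4000 UMIs, which 4 samples supplied, 21 members were lower and 0 higher (13% of all genes lower and 9.78% higher), but they were in part other genes. Of those named above, Ndufs1 (-0.35), Sdha (-0.85), Uqcrq (-0.52), Cox7a2 (-0.28) and Atp5a1 (-0.28) did not pass there (limma adjusted p = 0.579, 0.0932, 0.09, 0.42 and 0.432), while Cox7a1 (-1.68) and Sdhd (-1.01) did (limma adjusted p = 0.00184 and 0.0332). Median depth in enteroendocrine-like samples was 1507 to 6581.5 UMIs per cell and Malat1 averaged 107 UMIs per 10000, and their part in the difference was not tested.

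Along the villus axis the oxidative phosphorylation genes were lower in upper than in lower enterocyte-like cells. The enterocyte-like cells of each sample were ranked by the share of upper-villus genes (6 measured, among them Apoa4, Ada and Krt20) among the UMIs of upper-villus and lower-villus genes (11 measured, among them Reg1, Reg3b and Reg3g), and cut into 3 groups of equal size. The 87 genes summed to 410.1 ± 151 UMIs per 10000 in upper, 588.6 ± 145 in middle and 834.7 ± 106 in lower cells (SD, n = 6). Upper samples (425.6, 527.4 and 310.5 anterior, 639.9, 311.2 and 246.1 posterior) were all below lower samples (774, 988.6 and 938.9 anterior, 744.9, 735.8 and 825.7 posterior). Posterior mouse 1 had the smallest step between the positions.

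Of 85 members 60 were lower in upper cells and 0 higher, where 12.2% of all genes were lower and 9.76% higher, and the median member difference was -1.04, beside -0.09 over all genes. By complex, 25 of 37, 2 of 4, 6 of 8, 11 of 12 and 14 of 16 genes of complexes I to V were lower, and 2 of 7 assembly factors (Ndufaf2 and Sdhaf4). Sdhaf2 (0.19, limma adjusted p = 0.778) was the only member above 0. Among the abundant genes Cox4i1 (-0.60, limma adjusted p = 0.0873) and Atp5d (-0.61, limma adjusted p = 0.0845) did not pass. Ndufa10, Ndufa6, Ndufa7, Ndufb10, Ndufs8, Ndufv2, Uqcrfs1, Uqcrh, Uqcrq, Cox6c, Cox7a1, Cox7c, Ndufa4, Atp5c1, Atp5j2 and Atp5k were called with 1 of 6 samples going the other way.

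Atp5g1 had 0.5109 to 6.926 UMIs per 10000 in upper cells (median 3.89), against 8.277 to 15.87 in lower cells (median 12.5), a log2 difference of -1.96 (SE 0.344, limma adjusted p = 0.000536). Ndufb2, a small subunit of complex I, had 0.8528 to 4.579 (median 1.591), against 4.821 to 8.598 (median 5.681), a difference of -1.69 (SE 0.315, limma adjusted p = 0.000835). Upper and lower samples were apart for both genes, and both were lower in 6 of 6 samples. Ndufb11 (0.8689 to 4.354 in upper and 4.565 to 8.163 in lower cells, difference -1.66, SE 0.297, limma adjusted p = 0.000615) and Ndufc2 (1.121 to 3.266 and 4.463 to 12, difference -1.62, SE 0.275, limma adjusted p = 0.000456) were also apart. Cox7a1 differed by -0.98 (SE 0.330, limma adjusted p = 0.0368) and was lower in 5 of 6 samples, and in posterior mouse 1 it was 7.806 in upper and 3.915 in lower cells. Its share of Cox7a1 and Cox7a2 was 39.2% ± 10.8 in upper and 34.3% ± 7.88 in lower cells, with overlap.

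Depth and other gene groups moved with position, and their part in the difference was not tested. Median UMIs per cell were 1762 to 9113 in upper and 8739 to 12473 in lower cells, and Malat1 averaged 158 and 30.3 UMIs per 10000. Cluster 2, with 370 enterocyte-like cells, had a median of 1502.5 UMIs per cell, Malat1 at 251.2 and a sum of the 87 genes of 314.6. In the other enterocyte-like clusters these were 8395.5 to 13002, 3.645 to 13.51 and 566.6 to 1102. The upper-villus genes Ada and Creb3l3 were among the most raised genes of cluster 2, and its part in the difference was not tested. The 14 enterocyte markers summed to 840 to 1669 UMIs per 10000 in upper and 305 to 917 in lower cells, the 11 goblet markers to 98.9 to 237 and 50.3 to 107, and ribosomal protein genes to 167.9 to 1169 and 617.3 to 1931. When only cells with at least 4000 UMIs were ranked, these medians were 6602.5 to 10314 in upper and 9235 to 13824 in lower cells, Malat1 averaged 17.9 and 6.1, ribosomal protein genes summed to 141.7 to 1190 and 886.1 to 2032, and the 87 genes summed to 599.2 ± 102 in upper and 917.3 ± 155 in lower cells, still apart in all samples (429.5 to 699.1 and 743.3 to 1106). In those cells 40 members were lower and 0 higher (11.9% of all genes lower and 7.67% higher), with a median of -0.65. Atp5g1 (-1.26), Ndufc2 (-1.25), Ndufb11 (-1.07) and Ndufb2 (-1.07) were among them (limma adjusted p = 0.0017, 0.000622, 0.00261 and 0.00138), whereas Cox7a1 was at -0.06 (limma adjusted p = 0.894). Leaving out anterior mouse 3 left 38 calls, leaving out mouse 1 gave 64, and ranking by Apoa4 alone into 2 groups gave 18. Without mouse 1, 485 of 4701 genes were lower and 364 higher. For the fit without anterior mouse 3 and the Apoa4 ranking no share over all genes is given, so their counts cannot be set against it.

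**Figure D4:**
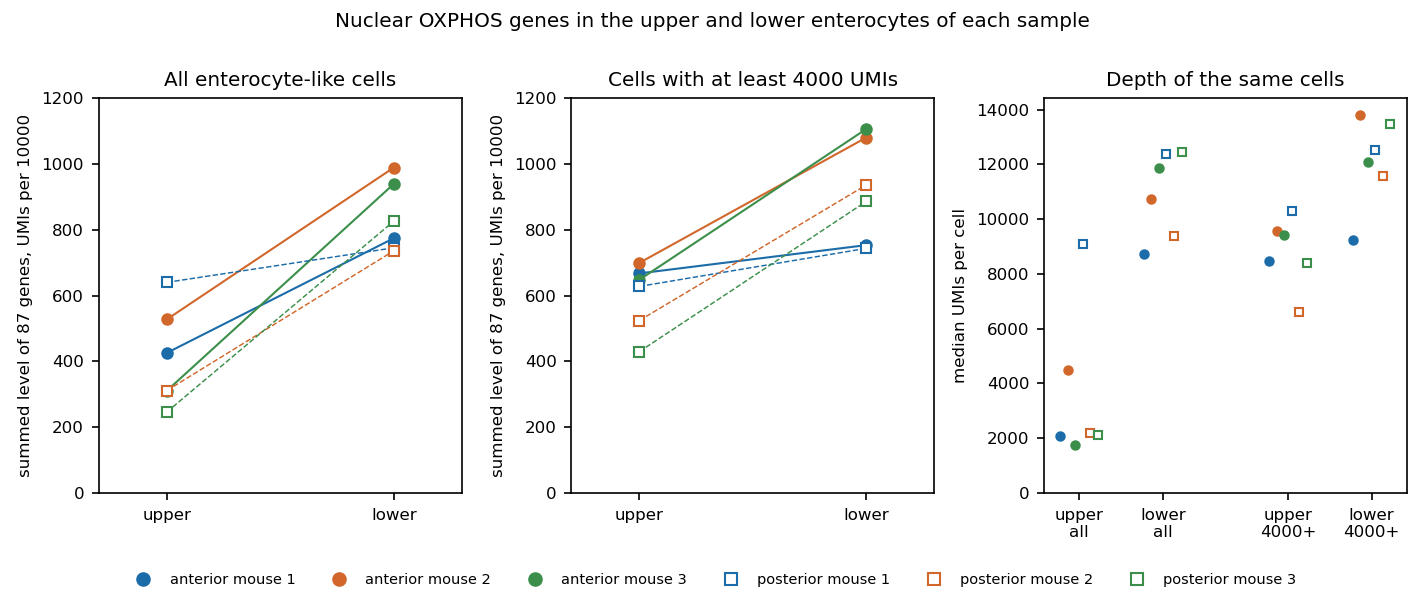
Summed level of the 87 genes (UMIs per 10000) in upper and lower enterocyte-like cells of each sample, for all cells and for cells with at least 4000 UMIs, and the median UMIs per cell of the same groups; lines join the groups of 1 sample. Each line is higher at the lower position, and the depth gap is smaller in the deeper cells (6602.5 to 10314 in upper and 9235 to 13824 in lower cells).

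The difference along the villus was not shown to depend on region. In a test of the interaction with limma, 0 of 85 members and 0% of all genes were called, 0 members had an unadjusted p under 0.05, and limma-voom on summed UMIs called 0 with 0 at that level. The smallest p values were those of Cox7a1 and Ndufab1, the mitochondrial acyl carrier protein. The upper against lower difference in anterior minus that in posterior jejunum was -1.09 for Cox7a1 (SE 0.652) and -0.99 for Ndufab1 (SE 0.611), both with a limma adjusted p of 0.996. Single libraries moved both values: without posterior mouse 1 that of Cox7a1 was -0.39 and without anterior mouse 3 it was -0.72, and that of Ndufab1 was -0.66 and -0.64.

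Between anterior and posterior jejunum no member was called in enterocyte-like, goblet-like or progenitor-like cells, the classes tested. In enterocyte-like cells the 87 genes summed to 642.1, 742.5 and 581.3 in anterior and 700.8, 510.6 and 489.6 UMIs per 10000 in posterior samples of mice 1, 2 and 3, with overlap. Limma called 0 of 85 members (0% of all genes), 2 had an unadjusted p under 0.05, and limma-voom called 0 with 10 at that level. The median difference was 0.24, beside 0.09 over all genes, and 79 members were above 0. Uqcrc1, a core subunit of complex III, had 7.476, 6.36 and 7.109 in anterior and 4.454, 3.937 and 3.965 in posterior samples, which were apart (log2 difference 0.73, SE 0.330, unadjusted p = 0.0498, limma adjusted p = 0.995, higher in 3 of 3 mice). Ndufaf3, an assembly factor of complex I, had 0.4321, 0.5407 and 0.8811, against 0.3274, 0.07819 and 0.1513 (difference 1.10, SE 0.395, unadjusted p = 0.0188, limma adjusted p = 0.995). Cluster 2 held 41 and 116 of these cells in anterior mice 2 and 3 and 115 and 77 in posterior mice 2 and 3. Their other anterior cells were mostly of clusters 7 and 12, their other posterior cells mostly of clusters 6 and 11, and cells of mouse 1 came mostly from cluster 4. Among cells with at least 4000 UMIs the sums were 721.7, 892.6 and 923.4 in anterior and 697.8, 715 and 685.8 in posterior samples, which were apart, and again 0 members were called.

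In goblet-like cells 0 of 78 members were called by limma (0% of all genes), with 3 at an unadjusted p under 0.05 and 1 with voom, and the sums overlapped (185.7, 196 and 195.1 anterior, 157.1, 249.6 and 180.6 posterior). Atp5l, a small subunit of complex V, had 0.517, 0.5323 and 2.214 in anterior and 0.2555, 0.1438 and 0 in posterior samples (log2 difference 1.78, limma adjusted p = 0.999), and Sdhb had 1.902, 0.515 and 0.6073, against 1.25, 4.803 and 2.938 (-1.41, limma adjusted p = 0.999). In progenitor-like cells 0 of 85 were called (0% of all genes), with 1 at an unadjusted p under 0.05 and 2 with voom. Ndufc1 had 7.722, 9.695 and 9.815 in anterior and 5.112, 7.361 and 3.457 in posterior samples (0.81, unadjusted p = 0.0193, limma adjusted p = 0.898), and Ndufa1 had 3.725, 3.71 and 3.447, against 2.635, 2.555 and 1.437 (0.71, unadjusted p = 0.0516, limma adjusted p = 0.934). Both were apart between the regions and higher in 3 of 3 mice. Within mouse 1 the summed progenitor-like level was low in both regions, at 616.1 anterior and 597.8 posterior, against 832.6 to 905.3 in mice 2 and 3.

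**Figure D5:**
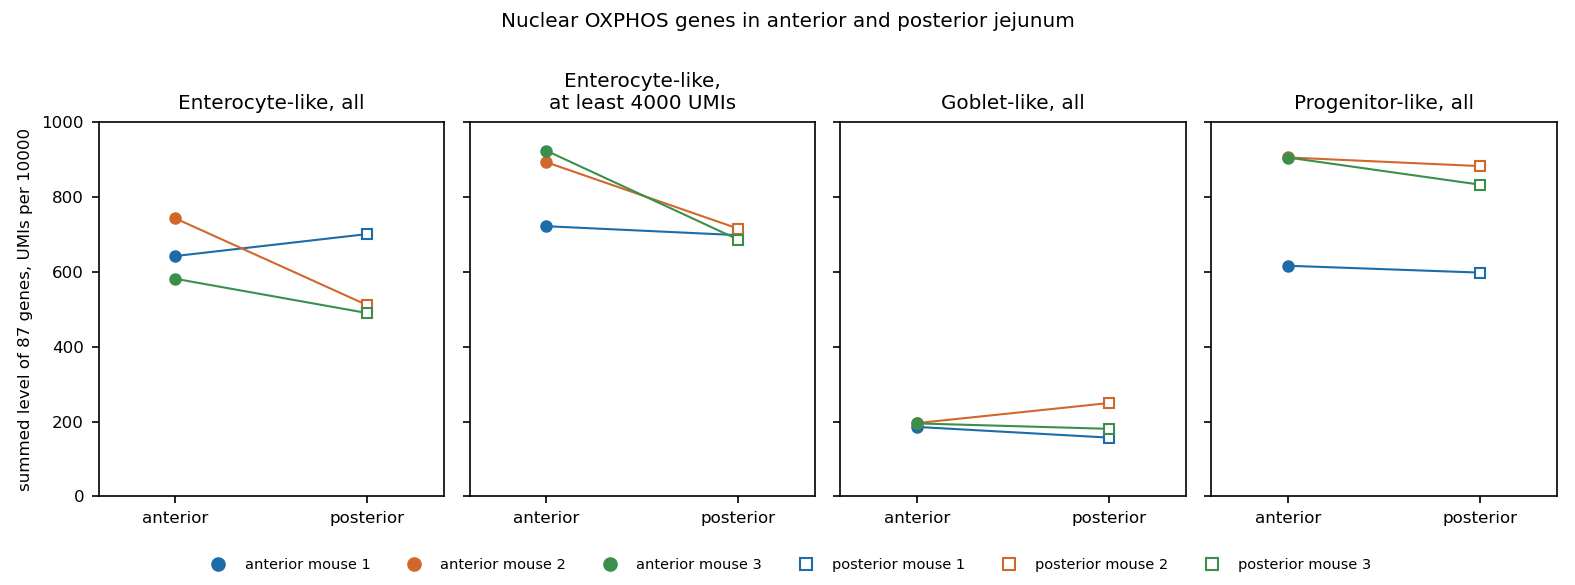
Summed level of the 87 genes (UMIs per 10000) in anterior and posterior samples of each mouse for enterocyte-like cells (all, and with at least 4000 UMIs), goblet-like and progenitor-like cells; lines join samples of 1 mouse. Anterior and posterior samples overlap except in enterocyte-like cells with at least 4000 UMIs (721.7 to 923.4 and 685.8 to 715).

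Other mitochondrial gene lists were read from the same fits. Against progenitor-like cells, goblet-like cells had lower levels of 10 of 18 electron carriers and exchange proteins, 11 of 24 assembly factors outside the 87 genes, 11 of 16 genes of the citric acid cycle and pyruvate oxidation, 11 of 15 of fatty acid oxidation and 62 of 70 mitochondrial ribosomal proteins, with 0 higher in any of these lists. Over all genes 30.7% were lower and 10.9% higher, a share to which the assembly factors come closest and the ribosomal proteins least. Slc25a5, an ADP/ATP carrier, averaged 5.19 ± 0.663 UMIs per 10000 in goblet-like and 17.08 ± 3.09 in progenitor-like cells (log2 difference -1.67, limma adjusted p = 4e-05), and Atpif1, the inhibitor of ATP synthase, 5.45 ± 1.04 and 23.24 ± 4.85 (-2.05, limma adjusted p = 2.36e-07). Glycolysis was mixed, with 6 of 11 genes lower, among them Ldha (-1.39) and Gapdh (-1.29), and 2 higher. The higher ones were Hk2 (2.40) and Pfkp (1.21), named after their values were seen.

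Between enterocyte-like and progenitor-like cells few genes of these lists were called, apart from the mitochondrial ribosome. Mdh2, malate dehydrogenase of the citric acid cycle, averaged 14.75 ± 3.45 in enterocyte-like and 7.27 ± 2.42 in progenitor-like cells (1.03, limma adjusted p = 0.00872), and Hadh, of fatty acid oxidation, 8.02 ± 1.88 and 3.80 ± 0.667 (1.03, limma adjusted p = 0.023). Cs, citrate synthase, had the same difference of 1.03 and did not pass (limma adjusted p = 0.0775). By list, 2 of 18 carriers, 2 of 16 citric acid cycle, 1 of 15 fatty acid oxidation and 2 of 11 glycolysis genes were higher, and 0, 1, 0 and 0 lower, beside 15.4% of all genes higher and 14.9% lower, so these counts are near or below the share over all genes. Of 70 mitochondrial ribosomal proteins 26 were lower and 0 higher, with Mrpl52 at -2.09 (limma adjusted p = 4.48e-05) and Mrpl34 at -0.61 (limma adjusted p = 0.285). Prdx5, a mitochondrial peroxiredoxin, rose (1.90, limma adjusted p = 0.000357) and Gpx1, a glutathione peroxidase, fell (-0.85, limma adjusted p = 0.0496). Of 8 mitochondrial antioxidant genes 2 were higher, the other being Gpx4 (1.3, limma adjusted p = 0.00741), and 1 was lower. Of 3 genes that govern mitochondrial biogenesis, Esrra, a nuclear receptor, was higher (1.2, limma adjusted p = 0.0498), Tfam, a factor that packages and transcribes mitochondrial DNA, was lower (-1.70, limma adjusted p = 0.00111), and Yy1 was at 0.06 (limma adjusted p = 0.936). Gpx4 and Tfam are named after their values were seen.

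In upper against lower enterocyte-like cells 4 of 18 carriers, 5 of 24 assembly factors, 7 of 16 citric acid cycle, 2 of 15 fatty acid oxidation, 1 of 10 glycolysis and 15 of 67 mitochondrial ribosomal genes were lower, and 0 higher in these lists. Over all genes 12.2% were lower and 9.76% higher, and the counts for fatty acid oxidation and glycolysis are near that share. Atpif1 (-1.16), Higd2a (-1.16) and Cox14 (-1.19), the last 2 of which help to assemble complex IV, were lower (limma adjusted p = 0.00561, 0.0104 and 0.00619), and Cs (0.23) and Hadh (-0.16) did not pass (limma adjusted p = 0.602 and 0.738). Of 8 antioxidant genes 3 were lower, with Gpx1 at -1.82 (limma adjusted p = 0.00042), and 1 was higher, Gpx4 at 1.2 (limma adjusted p = 0.0066). Enteroendocrine-like cells had lower Mdh2 (-1.0), Acaa2 (-1.09), Esrra (-1.62) and Gpx1 (-1.41) than the mean of the other classes (limma adjusted p = 0.00968, 0.0447, 0.00703 and 0.00138), and Gapdh (0.38) and Ldha (-0.47) did not pass (limma adjusted p = 0.345 and 0.207). None of these lists had a gene called between regions.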

How the data were processed

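The authors deposited 2 tables of log2 values per gene and cell, one for each region. Per the submitters' processing notes, the tools were STAR 2.6.1b (genome build GRCm38), R 3.5.1, bcl2fastq, cutadapt 1.18 and UMI-tools 1.0.0. Each deposited value proved to be log2(UMIs / size factor + 1) less a per-gene term linear in the amplification pool and 2 unidentified covariates, so whole UMI counts were recovered (100% of values whole within 0.01). The correction was thereby undone, and differences between pools stay in the counts. Levels were taken over the 5674 shared genes, so genes listed in 1 table do not enter the totals.

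Cells were grouped by Leiden clustering (leidenalg 0.10.2, 14 clusters) without the 87 genes, and doublets were not removed. Mean levels per class and sample (at least 5 cells) were tested with limma 3.58.1 in R 4.3.3, with empirical Bayes moderation and a mean trend, on log2(mean + 0.2), keeping genes whose mean reached 0.2, with Benjamini-Hochberg adjustment over all genes. Steps were tested on simulated data. The 3 mice are separate animals and each gave both regions. Same-mouse samples deviated together to unequal degrees. For mice 1, 2 and 3 the correlations were 0.705, 0.212 and 0.581 in enterocyte-like cells. They were 0.336, 0.0371 and 0.067 in goblet-like, and 0.406, 0.0638 and 0.0969 in progenitor-like cells. In these last 2 classes little shared deviation was seen for mice 2 and 3.

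The members and gene lists were chosen with earlier results of these data known. Genes named are the 2 most abundant of each complex, up to 4 called members with the largest change in each direction (the 2 with the smallest p where none was called), isoform families, the 2 most abundant genes of each related list and called members whose samples disagree in sign. Others were named after their values were seen. The limit of 4000 UMIs per cell and the fits without mouse 1 were also chosen after seeing the data.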

Additional observations from a re-analysis of the deposited data

Results flagged for a closer look

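In 13 of 232 groups of 4 to 6 samples, 1 sample lay farther from the others than Dixon's 95% critical value allows; chance alone flags about 1 in 20 groups. No explanation was tested for any of them.

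In goblet-like cells, Ndufa1 was 4.513 UMIs per 10000 in posterior mouse 2 and 0.641 to 0.9838 in the others. Ndufc2 was 3.457 in anterior mouse 3 and 0.385 to 1.076 in the others, and the same sample stood high for Ndufab1 (2.104, others 0.4203 to 0.718) and Atp5l (2.214, others 0 to 0.5323). Cox7a1 was listed at 0 in posterior mouse 3 and at 0.4522 to 0.6317 in the others.

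In enterocyte-like cells, Atp5l was 1.529 in anterior mouse 1 and 0.4571 to 0.8398 in the others, and in upper cells Ndufaf3 was 1.122 in anterior mouse 3 and 0 to 0.3655 in the others. In progenitor-like cells, Ndufa3 was 18.22 in posterior mouse 2 and 5.94 to 9.204 in the others.

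In enteroendocrine-like cells, Cox7a2l was 3.361 in anterior mouse 2 and 0.7355 to 1.335 in the others, and Ndufaf2 was 0.6731 in anterior mouse 1 and 0 in the others. In Paneth-like cells, Ndufb2 was 1.408 in posterior mouse 1 (others 2.223 to 2.548), Ndufc2 was 17.74 in anterior mouse 3 (others 0 to 2.183), and Ndufaf3 was 2.728 in posterior mouse 2 (others 0 to 0.5091).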

How the results depend on the processing

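Over 127 alternative counts of called members, 108 stayed within 1.5 times the count reported, 13 were smaller and 6 larger; of 875 values of named genes and sums, 705 kept direction and call, 168 lost the call, 2 moved by more than the spread and 0 reversed. The cause was not tested unless named.

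For enterocyte-like against progenitor-like cells (7 called), 13 were called with at least 10 cells, 3 in cells with at least 4000 UMIs, 55 on the mean of the deposited log2 values, 13 with median-ratio scaling, 11 with a pseudocount of 1, 13 without mouse 1 and 1 to 10 without 1 sample. With median-ratio scaling 1 member was higher and 12 were lower, beside 681 higher and 963 lower of 5302 genes. For enterocyte-like against goblet-like cells (72), 35 were called with median-ratio scaling and 66 to 73 without 1 sample. For enteroendocrine-like cells (20), 7 were called with at least 10 cells, 37 on the deposited log2 values, 6 without mouse 1 and 11 to 17 without 1 sample. The limit of 10 cells left this class only anterior and posterior mouse 1 (57 and 30 cells), so that fit has no replication across mice. For villus position (60), 18 were called when cells were ranked by Apoa4 alone and 38 to 67 without 1 sample. Goblet-like against progenitor-like cells (81) gave 77 to 81 without 1 sample. No share over all genes is given for the fits with at least 10 cells or with a pseudocount of 1. None is given for the deposited log2 values, the Apoa4 ranking or the fits without 1 sample. Directions are not given for these counts either, so they cannot be set against a share over all genes. The sums that moved, both in cells with at least 4000 UMIs, were those of enterocyte-like (772.7) and upper cells (599.2).

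With the mouse as replicate block, the paired fits of the 3 regional comparisons and of the interaction called 0 members, so the block changed no call. Classes with few cells per sample limit the precision of genes under about 1 UMI per 10000, and no interval covers amplification error.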
